A study of Mus musculus with 38 samples.

Results

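The genes of oxidative phosphorylation were followed through mouse livers under 3 diets. They were taken from the deposited count table by symbol, as the genes beginning with Nduf, Uqcr, Cox4 to Cox8, Atp5 or mt-, and Sdha to Sdhd. This gave 106 of the 21954 genes in the table, of which 93 are nuclear and 13 are encoded in mitochondrial DNA. Among the nuclear members, 36 belong to complex I, 4 to complex II, 8 to complex III, 19 to complex IV (cytochrome c oxidase) and 15 to complex V (ATP synthase). The other 11 are assembly factors or related proteins, such as the Ndufaf genes and Cox7a2l. The mitochondrial members are 7 subunits of complex I, 1 of complex III, 3 of complex IV and 2 of complex V.

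Complexes I and II pass electrons from NADH and succinate to ubiquinone, complex III passes them to cytochrome c, and complex IV passes them to oxygen. Complexes I, III and IV pump protons out of the matrix, and complex V lets them back through its c ring to make ATP. All complexes but complex II mix subunits read from nuclear and from mitochondrial DNA, and in the liver they consume the electrons that fat oxidation releases during a fast.

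Messenger RNA came from the livers of female wild-type C57BL/6 mice in 38 libraries of 13 groups. The fasted groups (F_6h, F_14h and F_22h, named by hour) held 3 libraries apiece. Calorie restriction (CR) was sampled with 2 libraries in CR_0h, 3 in CR_6h, 3 in CR_14h and 4 in CR_22h. A further 3 libraries were of restricted mice that missed a meal (CR_missed) and 3 of restricted mice that received it (CR_fed), at zeitgeber time 18. Unrestricted feeding, ad libitum (AL), was sampled with 3 libraries in AL_0h, 2 in AL_6h, 3 in AL_14h and 3 in AL_22h. The labels do not name the event from which the hours count. The labelled ages, 5 to 44 months, climb sample by sample, no age occurs in more than 1 group, and an effect of age cannot be told apart from one of the groups. Separate animals are not stated for the replicates, and p-values measure only the spread between these samples, which may be technical. Libraries are named by group and number, such as AL_14h 1.

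Totals ran from 17131292 to 30152277 expected counts per library. The summed level of 7 hepatocyte markers was 73494 to 166180 CPM, the count scaled to a library's normalised total, and hepatocyte RNA was abundant in every library. In bulk tissue, fewer cells of a type and less RNA per cell cannot be told apart. Some libraries stood apart from their labels. The clock genes Arntl and Dbp of AL_0h 2 (7.1 and 74.1 CPM) and AL_22h 2 (31.5 and 0.9 CPM) went against those of their groups, and AL_0h 3, CR_6h 3, CR_14h 3 and CR_22h 3 lay with libraries of another diet on the second principal component. Results that rest on these 6 libraries are given with and without them. Fold changes below are on the log2 scale from 1 edgeR quasi-likelihood model over all 38 libraries, with the standard error after the ± sign, and "called" means an adjusted p (Benjamini-Hochberg over all 13786 genes tested) under 0.05. Of the nuclear members 89 could be tested, as could all 13 mitochondrial members; Cox4i2, Cox7b2, Cox8b and Cox8c had too few reads.

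The promoters of the ATP synthase c subunit genes, the complex IV gene Cox5a and the assembly factor gene Ndufaf5 are shown because these genes recur in the comparisons below. The complex II gene Sdhc recurs as well, but no promoter window was matched for it. Atp5g1, Atp5g2 and Atp5g3 encode the same mature c subunit behind different import sequences. Each window runs from 250 bases before to 50 bases after the RefSeq start on GRCm38.p6, and lies at chr11:96075582-96075881 on the minus strand for Atp5g1, chr15:102670998-102671297 on the minus strand for Atp5g2, chr2:73911277-73911576 on the minus strand for Atp5g3, chr9:57520982-57521281 on the plus strand for Cox5a and chr2:140170396-140170695 on the plus strand for Ndufaf5. Capitals mark a match to the motif of the factor NRF1, searched on both strands as GCGCA and GCGC with any base between them.
Atp5g1: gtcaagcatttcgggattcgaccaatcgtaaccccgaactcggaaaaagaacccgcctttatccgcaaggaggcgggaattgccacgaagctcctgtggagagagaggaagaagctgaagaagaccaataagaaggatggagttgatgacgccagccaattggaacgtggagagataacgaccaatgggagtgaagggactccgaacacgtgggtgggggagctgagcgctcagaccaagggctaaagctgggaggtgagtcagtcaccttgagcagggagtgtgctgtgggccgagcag
Atp5g2: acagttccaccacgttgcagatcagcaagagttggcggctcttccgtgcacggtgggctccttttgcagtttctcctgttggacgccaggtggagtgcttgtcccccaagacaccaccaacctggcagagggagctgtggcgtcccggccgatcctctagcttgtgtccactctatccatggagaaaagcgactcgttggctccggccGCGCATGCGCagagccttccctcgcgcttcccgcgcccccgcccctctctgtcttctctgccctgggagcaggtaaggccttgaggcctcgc
Atp5g3: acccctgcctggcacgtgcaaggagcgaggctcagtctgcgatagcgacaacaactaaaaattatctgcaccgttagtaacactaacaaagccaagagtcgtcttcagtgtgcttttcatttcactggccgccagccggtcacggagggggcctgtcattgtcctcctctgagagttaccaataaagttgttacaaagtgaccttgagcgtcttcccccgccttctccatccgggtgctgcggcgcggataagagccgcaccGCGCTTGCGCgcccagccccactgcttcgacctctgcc
Cox5a: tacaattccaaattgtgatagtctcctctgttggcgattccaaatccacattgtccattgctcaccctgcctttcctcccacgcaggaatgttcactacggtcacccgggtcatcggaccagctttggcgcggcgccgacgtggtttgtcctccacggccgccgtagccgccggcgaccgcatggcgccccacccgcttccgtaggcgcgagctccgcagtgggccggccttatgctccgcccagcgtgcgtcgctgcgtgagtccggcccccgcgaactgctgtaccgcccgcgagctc
Ndufaf5: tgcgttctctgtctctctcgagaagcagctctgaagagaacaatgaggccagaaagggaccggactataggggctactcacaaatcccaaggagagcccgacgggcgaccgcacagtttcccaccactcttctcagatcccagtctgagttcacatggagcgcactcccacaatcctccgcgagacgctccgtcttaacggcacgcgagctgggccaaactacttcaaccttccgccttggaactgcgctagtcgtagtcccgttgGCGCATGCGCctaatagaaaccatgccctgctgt

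Such matches were found in 3 of these 5 windows, those of Atp5g2, Atp5g3 and Ndufaf5. RefSeq windows of 300 bases were matched for 77 of the 93 nuclear members, 83 windows in all. The NRF1 motif stood in 24.1% of the members' windows, against 9.16% of the windows of all tested genes and 4.6% of all RefSeq windows of this length. The ETS motif CCGGAAG stood in 21.7% of the members' windows, against 15.9% for the tested genes and 8.86% for all windows. For the YY1 motif AAGATGGCG the shares were 12.0%, 2.68% and 1.4%. All were searched on both strands, none of the patterns contains another, and a match describes letters, not a bound site.

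Levels between genes were compared as rescaled TPM, which is per transcript length. The mitochondrial transcripts were far above the nuclear ones. Over all 38 libraries mt-Co1, the catalytic subunit of complex IV, averaged 28720 rescaled TPM, mt-Co3 20362, mt-Atp6 17904, mt-Cytb 12013 and mt-Nd1 9490. The lowest were mt-Nd6 at 2088, the complex I gene on the other strand, and mt-Atp8 at 1495, which shares 43 bases with mt-Atp6. The value of mt-Atp8 rests on an effective length of only 33 bases. mt-Nd6 shares 14 bases with mt-Nd5, and reads there could not be told apart by strand. In contrast, the mean of a nuclear complex I gene lay between 29.8 (Ndufa11) and 465 (Ndufb9), with a median of 142. The means ran from 208 (Sdhc) to 279 (Sdhd) in complex II, and from 198 (Uqcrc2) to 532 (Uqcrq) in complex III. In complex V they ran from 107 (Atp5k) to 1016 (Atp5b, the catalytic beta subunit). Complex IV spanned the widest range, up to 1046 for Cox4i1, and the assembly group was the lowest, from 4.28 (Atp5s) to 143 (Cox7a2l).

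The wide range of complex IV came from its tissue isoforms. Cox4i1 averaged 1046 ± 353 rescaled TPM (SD, n = 38 libraries), and its lung-type partner Cox4i2 averaged 0.207 ± 0.261. The ubiquitous Cox6a1 averaged 1004 ± 270 and the heart and muscle isoform Cox6a2 0.766 ± 2.42. Cox8a averaged 607 ± 171, against 0.649 ± 3.28 for the muscle isoform Cox8b and no read at all for Cox8c. Of the 92 Cox8b reads, 78 came from CR_fed 1, so the isoform was at the floor elsewhere. Cox7a2 averaged 255 ± 109 and the muscle isoform Cox7a1 5.94 ± 5.87, while Ndufa4 averaged 751 ± 291 and its low-oxygen paralog Ndufa4l2 2.24 ± 1.26. All 3 c subunit genes were well expressed, at 692 ± 269 (Atp5g3), 472 ± 161 (Atp5g1) and 248 ± 84.3 (Atp5g2).

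As a share of all counts, the 13 mitochondrial members took 4.91% to 18.3% per library, with a median of 7.73%, and the 93 nuclear members took 0.833% to 1.76%, with a median of 1.15%. The highest mitochondrial share was that of AL_14h 1, and the next highest was 11.9% in CR_14h 3. The mitochondrial shares were 6.30 ± 0.561% in F_14h (SD, n = 3), 8.04 ± 3.31% in CR_14h (n = 3) and 10.2 ± 7.17% in AL_14h (n = 3). At 22 h they were 6.35 ± 0.614% in F_22h (n = 3), 9.39 ± 2.25% in CR_22h (n = 4) and 9.21 ± 0.282% in AL_22h (n = 3). The ranges of F_22h (up to 6.87%) and AL_22h (from 9.02%) did not overlap, whereas at 14 h the AL range enclosed the fasted one. For the nuclear members the lowest group mean was 0.899 ± 0.0804% in F_14h, and the highest were 1.56 ± 0.217% in CR_missed and 1.42 ± 0.172% in CR_fed (n = 3 each). Shares of counts grow with transcript length and are given as a description.

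**Figure D1:**
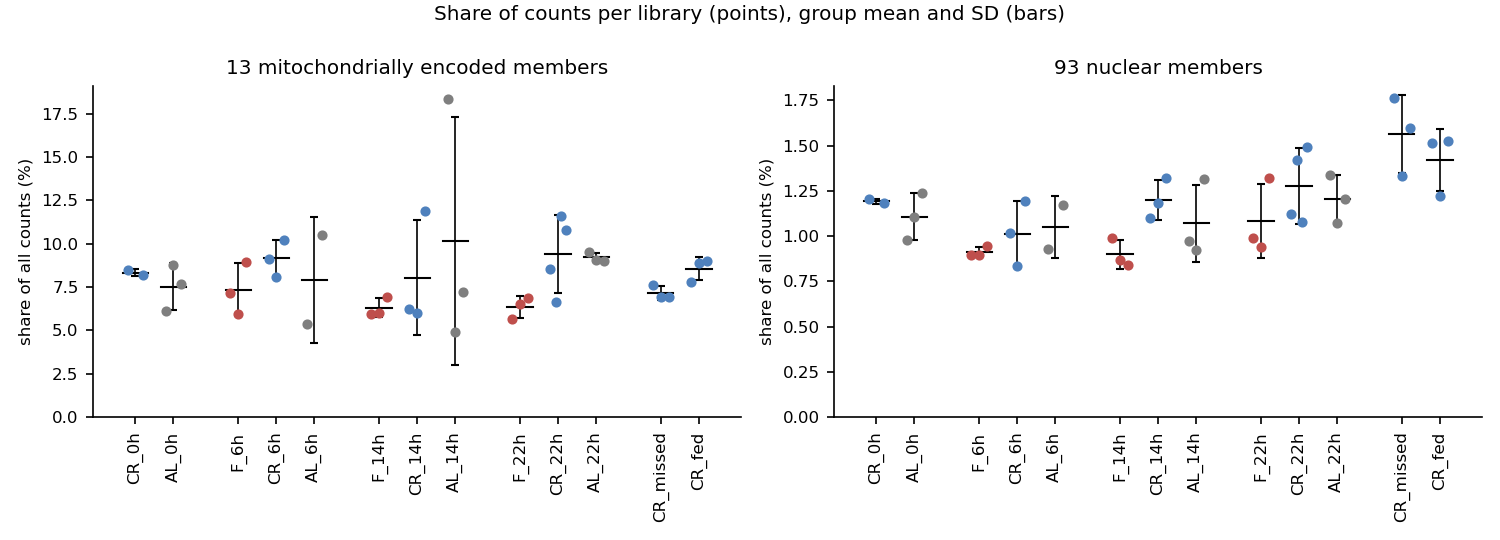
Share of all counts (%) taken by the 13 mitochondrial members (left) and the 93 nuclear members (right) in each library, with points for libraries (F red, CR blue, AL grey) and bars for the group mean and SD. The single high point on the left is AL_14h 1 at 18.3%, and on the right the missed-meal and fed groups are the highest.

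Fasted livers were set against AL livers at each shared hour, to ask what a fast did in freely fed mice. At 6 h no member was called by edgeR, nuclear or mitochondrial, where 2.34% of all genes tested were called. At an unadjusted p under 0.05 there were 9 nuclear and 2 mitochondrial members, DESeq2 called 1 nuclear member and limma none. The median nuclear difference was −0.17, and that over all genes −0.02. Its sign turned to +0.09 when each library's trend with effective transcript length was removed, an alternative set out for 14 h below. The groups did not overlap for 26 of 89 nuclear members with lower values in F_6h and for 8 with higher values, where 18.8% (lower) and 18.3% (higher) of all genes had no overlap. Atp5g2 was at 52.3, 57.3 and 60.3 CPM in F_6h and at 88.1 and 104 CPM in AL_6h.

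At 14 h the nuclear members were lower in fasted than in AL livers, with a median difference of −0.73 against −0.04 over all genes. Of the 89 tested, 40 fell and 2 rose, so that 47.2% were called, against 24.5% of all genes (12.7% lower and 11.8% higher). The groups did not overlap for 38 members with lower and 4 with higher values in F_14h, where 19.4% and 18.9% of all genes had no overlap. The count depended on single libraries. It was 24 without AL_14h 1, 8 without AL_14h 3, 22 without F_14h 2 and 14 without F_14h 3. Counts by subunit class are given as a description, since differences between classes were not tested and the classes are small. In complex I, 15 of the 29 accessory subunits fell, against 2 of the 7 catalytic core subunits, and in complex III 2 of the 5 small subunits fell and none of the 3 catalytic and core subunits. In complex V all 3 c ring genes fell, as did 4 of the 7 stalk and other membrane subunits, against 1 of the 5 subunits of the F1 head and central stalk. Sdhc was the 1 member of 4 called in complex II, and complex IV had 7 called lower of 15 tested. Markers of other cells moved with this comparison. Of 5 markers of sinusoidal endothelium 4 were called higher, with sums of 154 to 185 CPM in F_14h and 39.7 to 107 CPM in AL_14h. Pancreas markers had 2 of 5 called higher (0.658 to 18.6 CPM in F_14h and 0.214 to 1.14 CPM in AL_14h), and Kupffer cell and stellate cell markers 1 of 5 each. Hepatocyte markers had 2 of 7 called higher and 2 lower, and summed to 92644 to 115410 CPM in F_14h and 135860 to 142610 CPM in AL_14h. The part of these cells in the result was not tested.

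The c subunit genes give the pattern in full. Atp5g2 was at 56.1, 51.7 and 49.5 CPM in F_14h and at 124, 90.7 and 155 CPM in AL_14h, a difference of −1.23 ± 0.22 (adjusted p = 2.18e-04, edgeR). No fasted library reached the lowest AL library. Atp5g1 was at 112, 97.0 and 90.2 CPM in F_14h and at 184, 130 and 226 CPM in AL_14h (−0.85 ± 0.23), and Atp5g3 at 164, 149 and 119 CPM against 186, 236 and 358 CPM (−0.85 ± 0.26), again without overlap. Atp5e, the epsilon subunit of the central stalk and the only F1 gene called, was at 39.4, 31.9 and 21.5 CPM in F_14h and at 123, 78.0 and 201 CPM in AL_14h (−2.11 ± 0.47, adjusted p = 0.00184, edgeR). Atp5b was at +0.35 ± 0.24 and Sdha, the flavoprotein of complex II, at +0.45 ± 0.23, and neither was called.

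Among the members of the electron transport complexes, Sdhc, the heme-binding membrane anchor of complex II, was at 119, 106 and 106 CPM in F_14h and at 187, 167 and 224 CPM in AL_14h (−0.81 ± 0.18, adjusted p = 0.00192, edgeR). Cox5a, a subunit of complex IV, was at 66.5, 67.7 and 48.0 CPM in F_14h and at 91.3, 99.7 and 137 CPM in AL_14h (−0.85 ± 0.24). Neither gene's groups overlapped. The accessory subunit gene Ndufa6 differed by −1.10 ± 0.23 and Ndufa11 by −1.13 ± 0.24. Exons of Ndufa11 share 70 bases with Vmac on the other strand, and reads there could not be told apart. The opposite direction was seen in Ndufs1, the largest core subunit of complex I, at 145, 138 and 130 CPM in F_14h and at 74.7, 97.5 and 95.8 CPM in AL_14h (+0.63 ± 0.22, adjusted p = 0.0345, edgeR). Its call was lost in 5 of the 6 fits that left out a library, with 0.52 to 0.69 as the range of the difference. Cox6b2, the testis isoform of a complex IV subunit and the other member called higher, was at 0.960, 0.493 and 0.214 CPM in F_14h and at 0.0536, 0 and 0.0545 CPM in AL_14h. It was close to the floor of detection, where the fitted difference depends on the prior count.

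Ndufaf5, an assembly factor that in human cells hydroxylates a subunit of complex I, was low at both later times. It was at 2.51, 1.92 and 2.03 CPM in F_14h and at 6.48, 3.79 and 8.56 CPM in AL_14h (−1.54 ± 0.32, adjusted p = 9.06e-04, edgeR). At 22 h it was at 2.02, 1.14 and 2.50 CPM in F_22h and at 5.21, 5.68 and 5.35 CPM in AL_22h (−1.51 ± 0.32, adjusted p = 0.00289, edgeR). The groups did not overlap at either time. Under the alternatives run the call held each time, with −1.80 to −0.96 at 14 h and −1.76 to −1.15 at 22 h. At 6 h the gene was at 3.56, 3.60 and 4.54 CPM in F_6h and at 4.37 and 7.17 CPM in AL_6h, which overlap. Ndufaf6, another complex I assembly factor, was at 7.15, 5.04 and 6.84 CPM in F_14h and at 16.1, 8.48 and 23.9 CPM in AL_14h (−1.35 ± 0.32).

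**Figure D2:**
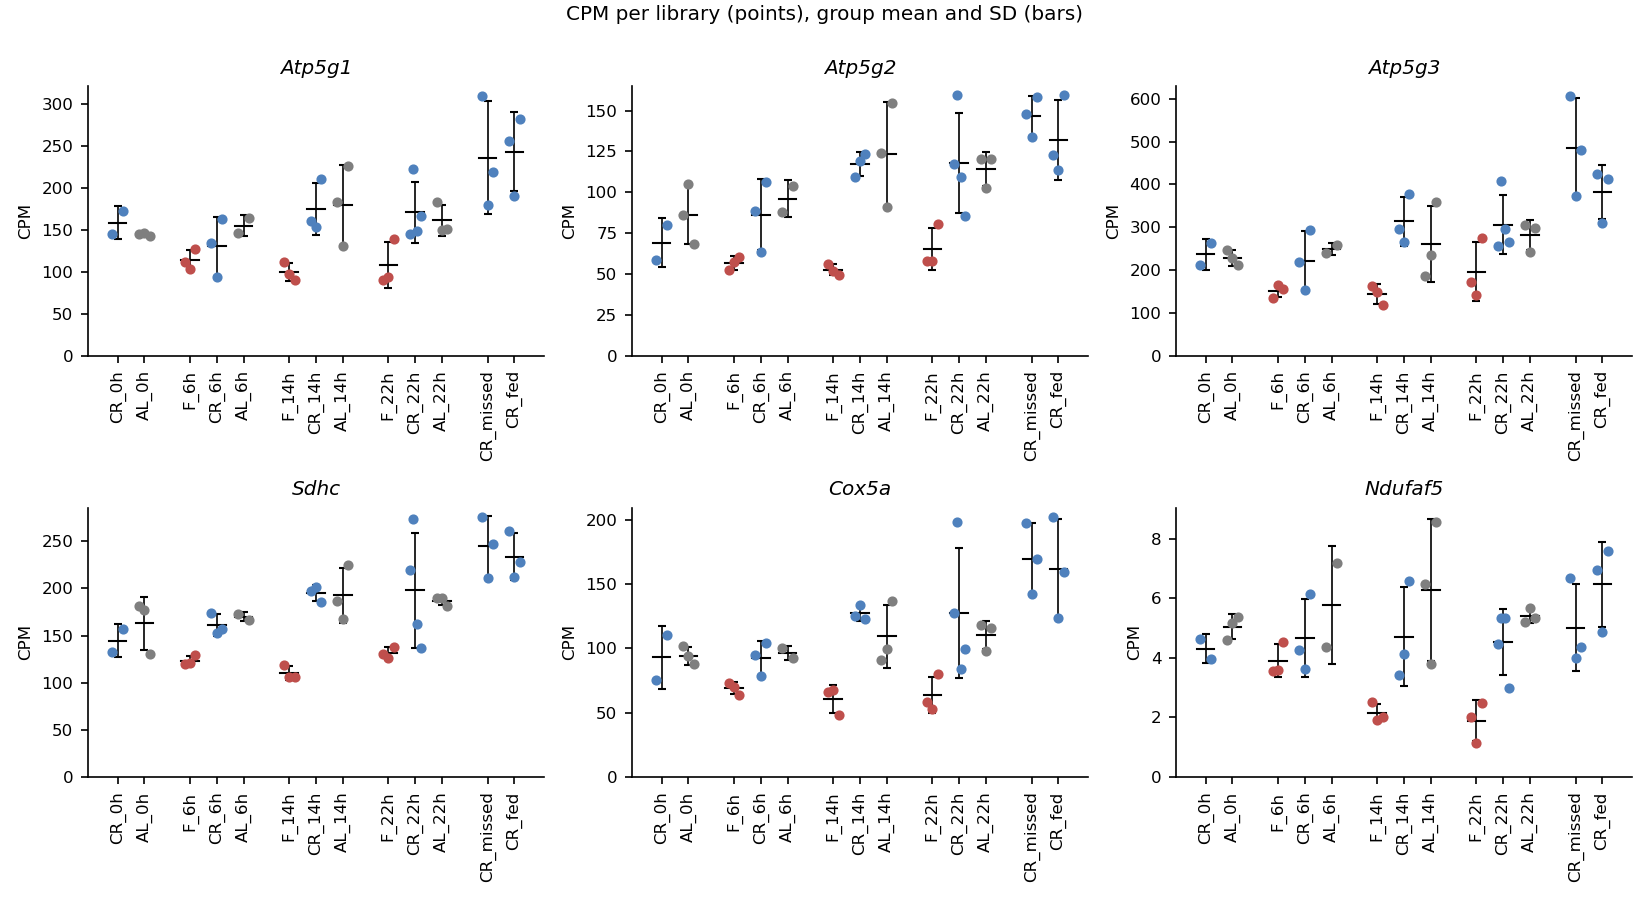
CPM of the 3 c subunit genes, Sdhc, Cox5a and Ndufaf5 in each library (points, F red, CR blue, AL grey), with the group mean and SD (bars), in the order fasted, calorie-restricted and ad libitum within each time. The fasted points at 14 h lie below the AL points in all 6 panels, and at 22 h they do so at least for Ndufaf5, Sdhc, Atp5g2 and Cox5a.

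At 22 h fewer members were called. Of the 89 nuclear members 5 fell and 1 rose (6.74%, against 11.5% of all genes, with 5.4% lower and 6.06% higher), with a median difference of −0.29. Those lower were Ndufaf5, Atp5e (−1.42 ± 0.46), Atp5g2 (−0.81 ± 0.22), Cox5a (−0.79 ± 0.24) and Ndufa11 (−0.73 ± 0.24). Atp5s, a factor once described as a coupling protein of ATP synthase, was higher, at 6.38, 6.26 and 6.72 CPM in F_22h and at 3.35, 2.75 and 4.10 CPM in AL_22h (+0.92 ± 0.27, adjusted p = 0.0238, edgeR). With the effective length trend removed, as set out for 14 h below, the median turned to +0.22, and 6 nuclear members were called higher and 2 lower. Of the 6 calls Atp5e, Atp5s and Ndufaf5 held, and Atp5g2, Cox5a and Ndufa11 were lost. With the listed length the median was +0.12, and Atp5s and Ndufaf5 held. Over all genes the rho of this comparison with effective length was 0.433. The count of 6 became 1 without AL_22h 1, 3 without AL_22h 2, 2 without AL_22h 3, 1 without F_22h 1, 3 without F_22h 2 and 13 without F_22h 3. It was 3 without both libraries of a deviant clock, and 10 without those that lay with another diet. Whether the fasting difference changed between 6, 14 and 22 h was tested directly, and no member was called (0.0653% of all genes were). At an unadjusted p under 0.05 that test had 3 nuclear members, DESeq2 called 1 member and limma none.

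**Figure D3:**
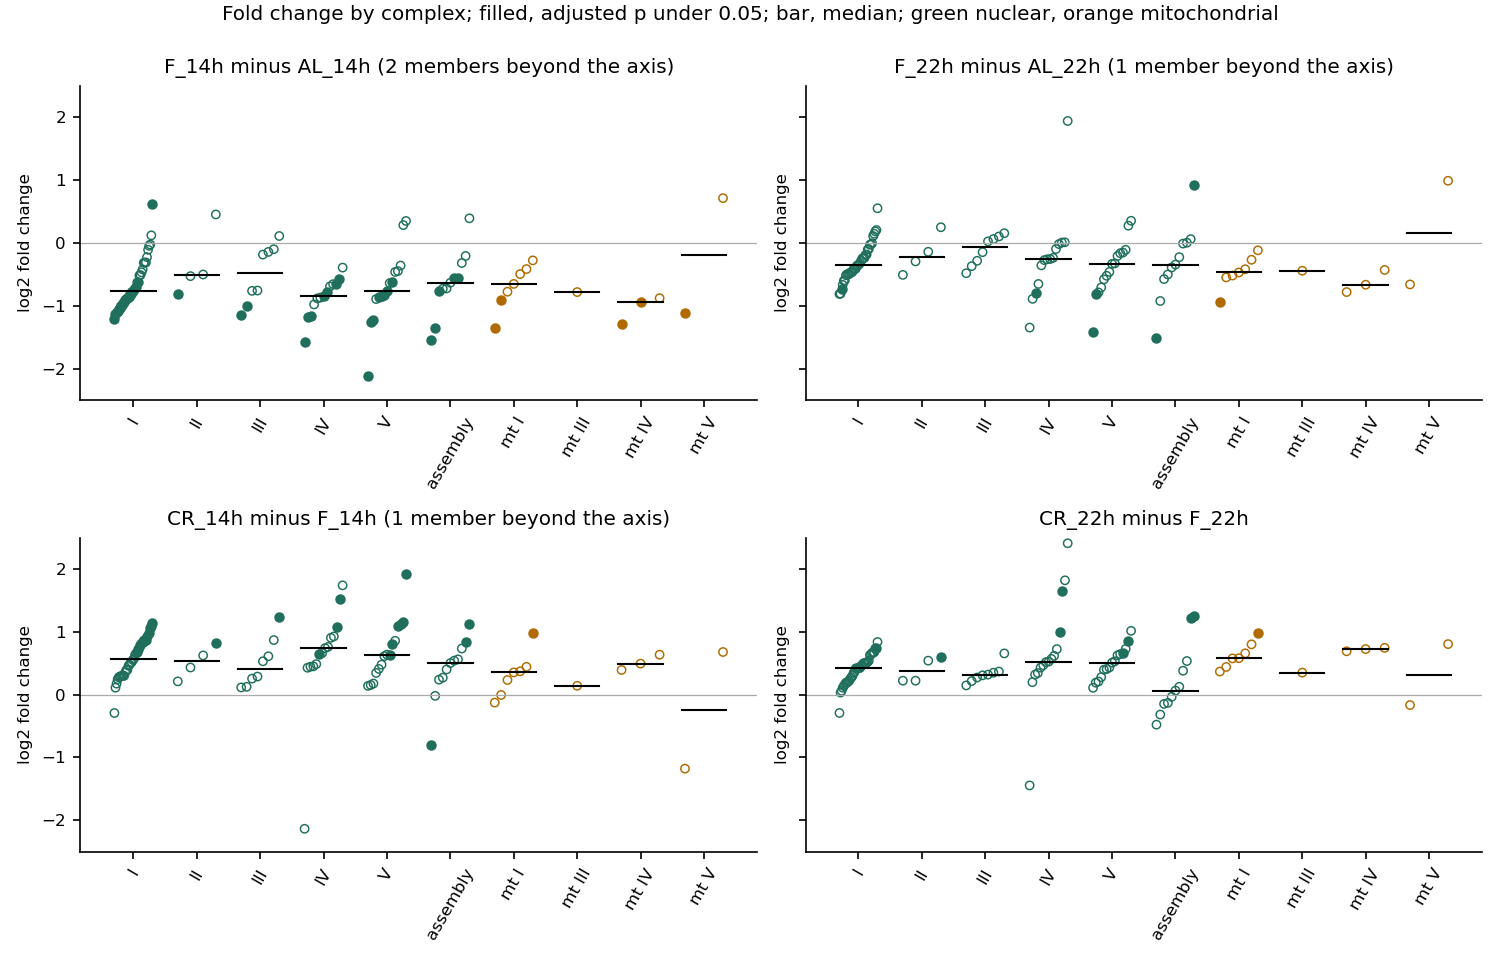
Log2 fold change of each tested member by complex in 4 comparisons, nuclear in green and mitochondrial (mt) in orange, with filled points for an adjusted p under 0.05 and bars for medians. Most nuclear points lie below 0 for F_14h minus AL_14h (median −0.73) and above 0 for CR_14h minus F_14h (median 0.57), and fewer points are filled at 22 h.

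The direction of most nuclear members at 14 h moved with the length of their transcripts. Their products are mostly small, and so are their effective lengths, which in principle count the positions at which a fragment can start. Here the effective length was the ratio of deposited counts to rescaled TPM, which gives relative values only. These were put on a scale of bases by setting their median over all genes to that of the genes' listed transcripts, 1890 bases. On this scale the nuclear members had a median of 461 bases. A value can exceed the listed length, as for Sdha (2050 against 778 bases). Across 13158 genes the fold change of F_14h over AL_14h was correlated with effective length (Spearman's rho 0.474), as a description of these libraries. The trend differed between single libraries: the correlation of a library's deviation from the mean with length was 0.272 to 0.348 in the F_14h libraries and −0.525 to −0.01 in the AL_14h libraries. Among the nuclear members those called lower had a median effective length of 399 bases and those not called 620 bases. The 2 called higher were at 1811 bases (Ndufs1) and 289 bases (Cox6b2), the latter shorter than the median of those called lower. The subunit classes also differed in length: the listed transcripts of complex I had a median length of 704 bases for accessory subunits and 952.8 bases for core subunits. Atp5g1 had an effective length of 360 bases, Atp5e 191, Ndufs1 1811 and Sdha 2050. Ndufa11 was at 1879 bases, against a listed length of 545 bases. Its low rescaled TPM given above rests on the same value.

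When each library's trend with effective length was removed before the fit, an alternative chosen after the data were seen, 7 nuclear members were higher and 4 lower in F_14h than in AL_14h, and the median difference was +0.11 in place of −0.73. Of the 42 calls 6 held in the same direction: Atp5e at −0.79, Ndufaf5 at −0.96, Ndufa11 at −1.16, Ndufaf7 at −0.49, Ndufs1 at +0.62 and Cox6b2 at +4.80. Ndufaf7, a methyltransferase of complex I assembly, is named because it held, so it was chosen after its values were seen. With the mean length of a gene's listed transcripts in place of the effective length, the counts were 8 higher and 9 lower and the median −0.04, and all of these 6 but Ndufa11 held. The c subunit genes depended on which length was used. Atp5g1 was at −1.05 with the listed length, which is 2666 bases for this gene, and at +0.12 with the effective length; Atp5g2 was at −0.43 and −0.34 and Atp5g3 at −0.26 and +0.013. Of these, Atp5g1 was called with the listed length and the others with neither. Sdhc was at −0.69 and called with the listed length, and at −0.37 and not called with the effective length. What made the length trend differ between libraries was not tested, so a general fall of the nuclear members cannot be told apart from it.

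**Figure D4:**
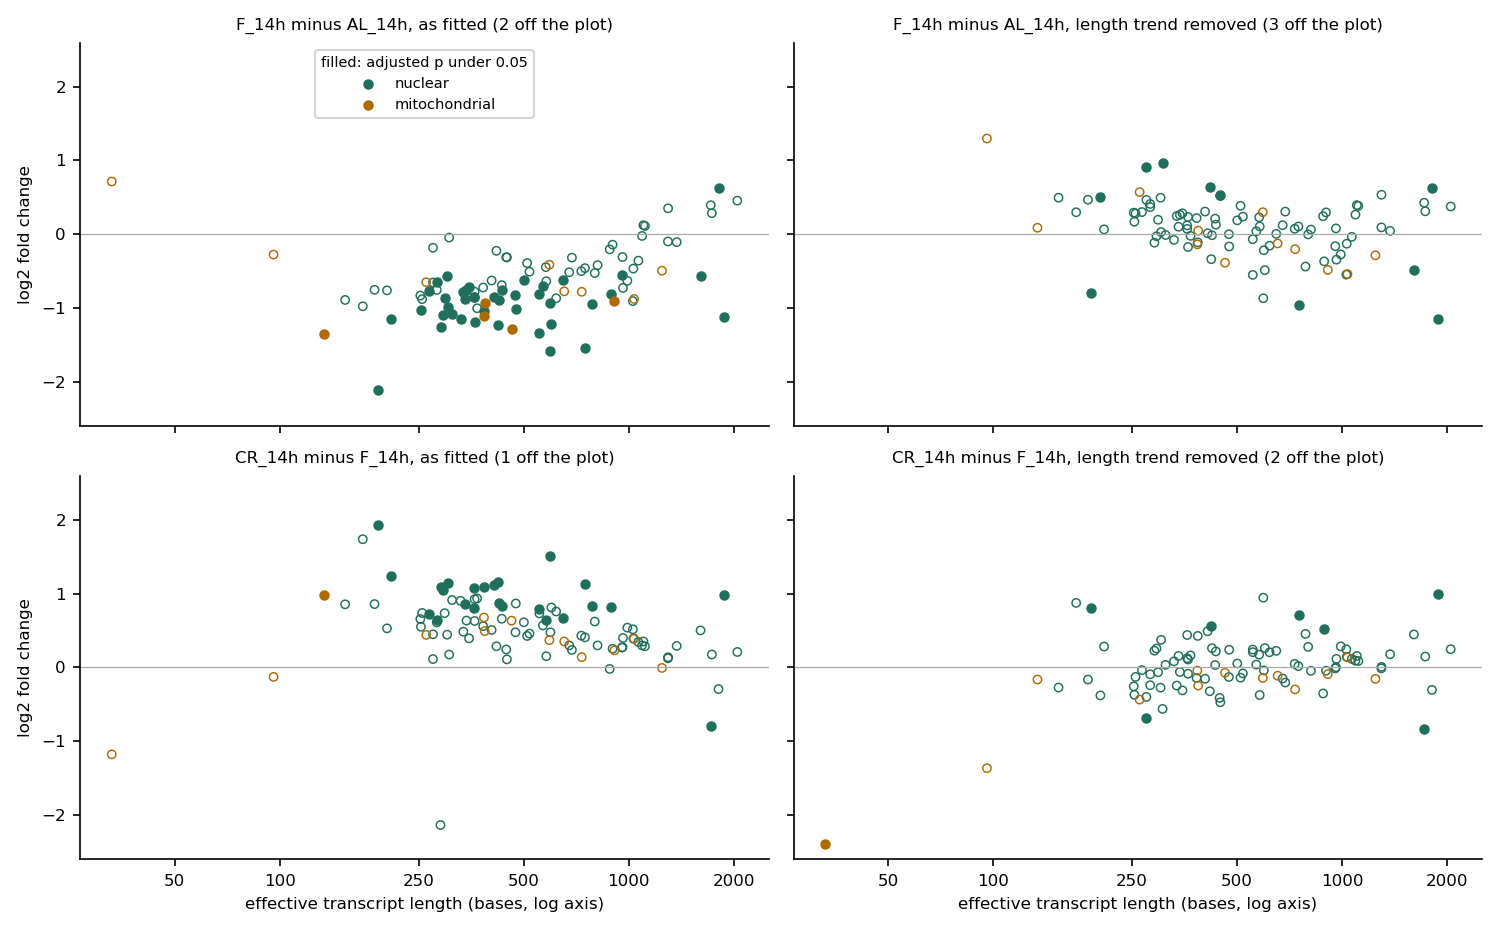
Log2 fold change of the members against effective transcript length (bases, log axis) for F_14h minus AL_14h (top) and CR_14h minus F_14h (bottom), as fitted (left) and with each library's length trend removed (right), nuclear in green and mitochondrial in orange. On the left short transcripts lie below 0 in the top row and above 0 in the bottom row, and on the right the nuclear medians are +0.11 and +0.05. Points beyond the axis are counted in the panel titles.

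The mitochondrial members at 14 h followed 1 library. Of 13, 5 were called lower in F_14h than in AL_14h and none higher, with a median of −0.78. They were mt-Nd3, mt-Nd4, mt-Co2, mt-Co3 and mt-Atp6. mt-Co3, a core subunit of complex IV, was at 5853, 5132 and 5668 CPM in F_14h and at 24464, 4868 and 11203 CPM in AL_14h (−1.28 ± 0.38, adjusted p = 0.0129, edgeR). The highest AL value was that of AL_14h 1 and the lowest AL value lay below all fasted ones. mt-Co1, which was not called, was at 21222, 20322 and 23131 CPM in F_14h and at 75099, 15522 and 28241 CPM in AL_14h. Only mt-Nd3, a small membrane subunit of complex I, did not overlap between the groups, at 232, 163 and 160 CPM in F_14h and 661, 293 and 466 CPM in AL_14h (−1.36 ± 0.32, adjusted p = 0.00248, edgeR). Without AL_14h 1 the differences were −0.13 for mt-Co2, −0.52 for mt-Co3, −0.37 for mt-Atp6, +0.05 for mt-Nd4 and −1.03 for mt-Nd3. The count of 5 became 2 without AL_14h 1, 10 without AL_14h 2, 8 without AL_14h 3 and 3 without any single F_14h library. With the trend of effective length removed none of the 5 was called and mt-Nd3 was at +0.09. mt-Atp8 was then called higher, at an effective length of 33 bases that lies far from those of most genes.

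**Figure D5:**
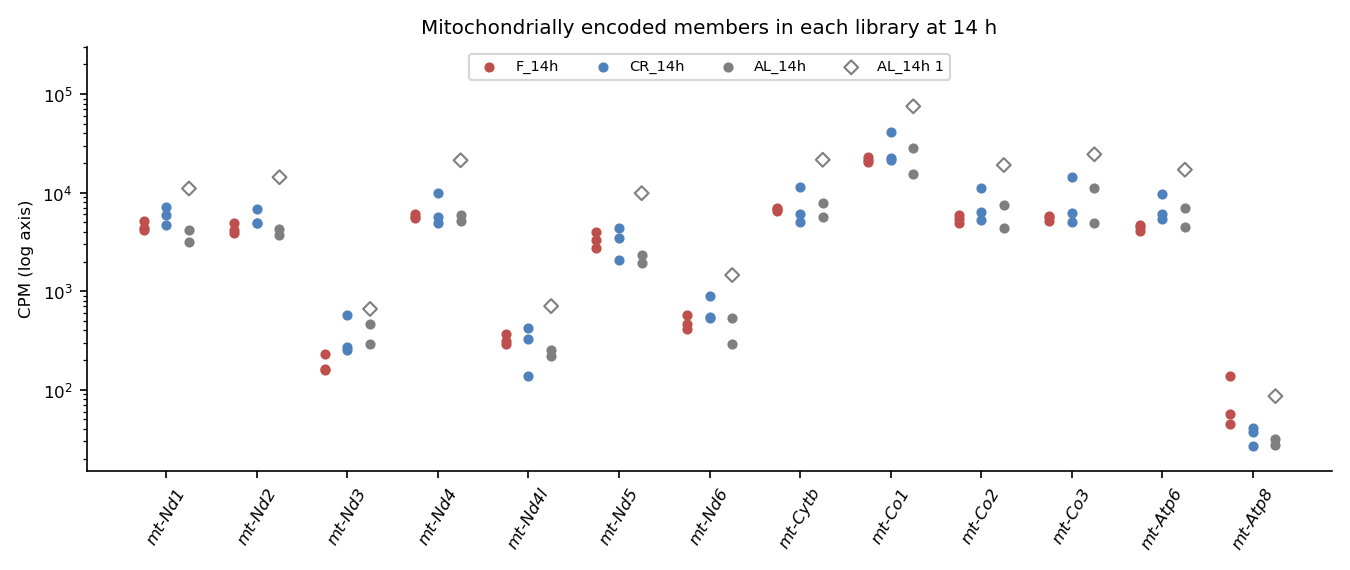
CPM (log axis) of the 13 mitochondrial members in each library at 14 h, fasted, calorie-restricted and ad libitum from left to right within each gene, with AL_14h 1 as an open diamond. AL_14h 1 is the highest library for the complex IV genes, such as mt-Co1 at 75099 CPM, and for every other gene but mt-Atp8.

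At 22 h mt-Nd3 was the 1 mitochondrial member called lower, at 183, 225 and 227 CPM in F_22h and at 378, 454 and 390 CPM in AL_22h (−0.94 ± 0.31, adjusted p = 0.0463, edgeR). That call was lost without any 1 of the 6 libraries. In all, 8 of the 13 members did not overlap between the groups, each lower in F_22h, where 18.4% of all genes had no overlap in that direction. With the length trend removed mt-Nd3 was at −0.052 (listed length) and −0.015 (effective length) and not called. The mitochondrial median was then −0.16 and −0.033, in place of −0.47, and mt-Atp8 was called higher with either length. As fitted, mt-Atp8 was at +0.99 ± 0.46 and not called, and its groups overlapped. Its effective length of 33 bases lies far from those of most genes.

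The calorie-restricted and AL livers were compared at 4 times, to ask whether a restricted diet itself went with another level of these genes. No member was called by edgeR at 0 h, 6 h, 14 h or 22 h, where 0.479%, 0%, 0.0218% and 4.88% of all genes were called. At an unadjusted p under 0.05 there were 1, 1, 2 and 11 nuclear members at these times and no mitochondrial one. DESeq2 called 2 nuclear members at 22 h and none at the other times, and limma called 1 at 22 h with a minimum mean level and none otherwise. The medians of the nuclear differences were +0.13, −0.16, −0.07 and +0.12. With the effective length trend removed they were +0.13, +0.06, +0.13 and +0.28, so that the sign turned at 6 h and 14 h, and 2 nuclear members were called at 22 h. The mitochondrial medians were then +0.07, +0.64, −0.20 and +0.31, with no mitochondrial member called. Without the 4 libraries that lay with another diet, 2 nuclear members were called at 14 h and 7 at 22 h, and without CR_22h 3 alone 3 were called at 22 h. Ndufaf5 was at 4.46, 5.35, 5.35 and 2.98 CPM in CR_22h and at 5.21, 5.68 and 5.35 CPM in AL_22h, and Atp5g2 was at 118, 160, 109 and 85.7 CPM in CR_22h and at 121, 102 and 120 CPM in AL_22h. The values of both genes overlapped. Whether the difference changed over the 4 times was tested directly, and no member was called by edgeR, DESeq2 or limma (0.442% of all genes by edgeR; 2 nuclear members at an unadjusted p under 0.05).

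The calorie-restricted livers were set against fasted livers at the same times, to compare a restricted diet with a fast. These comparisons share the fasted libraries with those above. At 6 h no member was called by edgeR, where 6.8% of all genes were; 7 nuclear members had an unadjusted p under 0.05, DESeq2 called 1 and limma none. At 14 h, 23 nuclear members were higher and 1 lower in CR_14h than in F_14h (27.0%, against 17.1% of all genes, with 9.1% higher and 7.97% lower), and the median difference was 0.57. The count of 24 became 10 without CR_14h 3, a library that lay with another diet, and 10 without F_14h 3. The groups did not overlap for 44 members that were higher, where 16.8% of all genes had no overlap in that direction. Of 5 sinusoidal endothelium markers 2 were called lower, with sums of 105 to 146 CPM in CR_14h and 154 to 185 CPM in F_14h, and of 5 pancreas markers 2 were called lower (0.342 to 0.633 CPM in CR_14h and 0.658 to 18.6 CPM in F_14h). Bile duct markers had 1 of 5 called higher, and hepatocyte markers 1 of 7 higher and 1 lower, with sums of 125080 to 159290 CPM in CR_14h and 92644 to 115410 CPM in F_14h. Their part in the result was not tested.

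Atp5g2 was at 109, 119 and 123 CPM in CR_14h and at 56.1, 51.7 and 49.5 CPM in F_14h, a difference of 1.16 ± 0.22 (adjusted p = 5.02e-04, edgeR). Sdhc was at 197, 202 and 186 CPM in CR_14h and at 119, 106 and 106 CPM in F_14h (0.83 ± 0.18, adjusted p = 0.00223, edgeR). Both genes were tight within each group and wide apart between them. Cox5a was at 126, 134 and 123 CPM in CR_14h and at 66.5, 67.7 and 48.0 CPM in F_14h (1.07 ± 0.24). Atp5e was higher in CR_14h by 1.93 ± 0.47, with 74.7, 61.2 and 217 CPM against 39.4, 31.9 and 21.5 CPM in F_14h, and its CR values spread widely. Ndufaf5 was at 3.44, 4.11 and 6.58 CPM in CR_14h and at 2.51, 1.92 and 2.03 CPM in F_14h (1.13 ± 0.32), and lost its call without CR_14h 3 or F_14h 3. The only member lower in CR_14h was Ndufaf4, an assembly factor that works with Ndufaf3, at 17.1, 28.6 and 21.2 CPM against 61.6, 24.5 and 30.3 CPM in F_14h (−0.80 ± 0.27), where the groups overlapped. Over all genes this comparison had a rho of −0.387 with effective length. With that trend removed, 5 nuclear members were called higher and 2 lower, and the median was +0.05. Of the 24 calls 6 held: Sdhc at 0.52, Atp5g2 at 0.56, Atp5e at 0.80, Ndufaf5 at 0.71, Ndufa11 at 0.99 and Ndufaf4 at −0.84. With the listed length 10 of the 24 held and the median was +0.10; these 10 included Atp5g1, Atp5g3, Cox5a and Ndufa6 but neither Ndufa11 nor Ndufaf4. Held with both lengths were 4 calls, those of Atp5e, Atp5g2, Ndufaf5 and Sdhc. Sdhc and Atp5g2 kept their calls in every alternative run, with ranges of 0.52 to 0.88 and 0.56 to 1.21.

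At 22 h, 8 nuclear members were higher and none lower in CR_22h than in F_22h (8.99%, close to the 9.44% of all genes, with 5.13% higher and 4.32% lower), with a median of 0.42. Ndufaf5 differed by 1.26 ± 0.30 and Ndufaf6 by 1.21 ± 0.30, with Ndufaf6 at 12.1, 14.7, 17.8 and 24.3 CPM in CR_22h and at 7.44, 4.33 and 10.4 CPM in F_22h. Both held with the trend of effective length removed (1.04 and 0.92), and no other of the 8 did. With the listed length 6 of the 8 held, the other 4 being Atp5g1, Atp5g2, Cox5a and Sdhc. The nuclear median was +0.07 with the effective and +0.13 with the listed length. Cox5a differed by 1.00 ± 0.23, Atp5g2 by 0.85 ± 0.20, Ndufa6 by 0.73 ± 0.22, Atp5g1 by 0.66 ± 0.22, Sdhc by 0.59 ± 0.17 and the low Ndufa4l2 by 1.65 ± 0.51. The count of 8 became 4 without CR_22h 2, 13 without CR_22h 3, 2 without F_22h 1, 3 without F_22h 2 and 19 without F_22h 3, and 15 without the 4 libraries that lay with another diet. At an unadjusted p under 0.05 there were 3 mitochondrial members at 14 h and 7 at 22 h. At 22 h mt-Atp6 and mt-Nd2 each differed by 0.80 and mt-Atp8 by −0.17, none of them called. With the effective length trend removed the mitochondrial medians were −0.16 at 14 h and +0.27 at 22 h. mt-Nd3 was the 1 mitochondrial member called higher in CR livers, by 0.99 ± 0.31 at 14 h and 0.98 ± 0.30 at 22 h. It was lost at 14 h without CR_14h 3, F_14h 2 or F_14h 3, at 22 h without any 1 of the libraries but CR_22h 1, and at both times with the length trend removed (−0.16 and +0.14).

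The CR mice that missed a meal were compared with those that were fed, both at zeitgeber time 18, to ask what the absence of an awaited meal did. Of the 89 nuclear members 2 rose and 2 fell (4.49%, against 12.5% of all genes, with 6.34% higher and 6.13% lower), with a median of +0.16. No mitochondrial member was called by edgeR, DESeq2 or limma, and 1 had an unadjusted p under 0.05. Uqcrc2, a core protein of complex III, was at 362, 301 and 392 CPM in CR_missed and at 239, 249 and 246 CPM in CR_fed (+0.52 ± 0.16, adjusted p = 0.0294, edgeR). The groups were apart, but the call was lost in 5 of the 6 fits that left out a library, and its exons overlap those of Pdzd9 on the other strand. Ndufaf3, an assembly factor of complex I, was at 9.08, 3.40 and 5.64 CPM in CR_missed and at 17.1, 9.62 and 14.4 CPM in CR_fed (−1.19 ± 0.32, adjusted p = 0.0143, edgeR), with 48 exon bases shared with Impdh2 on the other strand. Both were also called with either length trend removed (+0.58 and −1.13 with the effective length), where 9 nuclear members were called in all.

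The other 2 members called after the missed meal were tissue isoforms near the floor. Cox6a2, the heart and muscle isoform, was at 0.0547, 0 and 0 CPM in CR_missed and at 5.18, 1.37 and 0.182 CPM in CR_fed (−6.66 ± 1.83, a fitted value that depends on the prior count). Markers of skeletal muscle moved with it: 4 of 5 were called lower in CR_missed, and their sum was 0.827 to 1.70 CPM in CR_missed and 1.64 to 218 CPM in CR_fed, highest in CR_fed 1, the library with the most Cox6a2. Fat markers summed to 35.9 CPM in CR_fed 1 and to at most 0.438 CPM in CR_missed. Without CR_fed 1 the difference of Cox6a2 was −5.13 and not called. The part of muscle or fat RNA in this result was not tested. Cox6b2 was at 1.59, 0.138 and 0.681 CPM in CR_missed and at 0.108, 0.0859 and 0.0910 CPM in CR_fed (+2.99 ± 0.98). The count of 4 was 0 without CR_fed 1 or CR_missed 3, and 2 without any other of the 6 libraries. Erythroid markers also differed, with 4 of 5 called higher and sums of 4670 to 14416 CPM in CR_missed and 947 to 2342 CPM in CR_fed, and so did 2 of 5 sinusoidal endothelium markers, called higher with sums of 143 to 166 CPM in CR_missed and 82.3 to 104 CPM in CR_fed. Their part in these results was not tested.

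Change over time within a diet was tested across all times together. In CR livers 7 members changed, all of them nuclear, while 20.6% of all genes did; 5 of the 7 were assembly factors or related proteins. Atp5sl, which takes part in building the membrane arm of complex I, was at 23.4 and 24.3 CPM at 0 h, at 30.8, 26.8 and 24.2 CPM at 6 h, at 35.1, 36.7 and 42.5 CPM at 14 h and at 53.4, 51.9, 63.9 and 43.9 CPM at 22 h (adjusted p = 3.76e-04, edgeR). Its values climbed over the 4 times. Ndufaf4 was highest at 0 h, at 62.2 and 62.9 CPM, lowest at 14 h, at 17.1, 28.6 and 21.2 CPM, and between these at 22 h, at 40.5, 33.9, 34.9 and 44.4 CPM (adjusted p = 0.00323, edgeR). Atp5s was at 2.98 ± 0.796 CPM at 0 h (n = 2), 2.59 ± 0.228 at 6 h, 5.38 ± 0.398 at 14 h (n = 3 each) and 4.63 ± 1.14 at 22 h (SD, n = 4). The others were Ndufaf7, Cox7a2l, Atp5g2 and Atp5c1, the gamma subunit. Atp5sl, Ndufaf7 and Atp5c1 are named for being called. All but Atp5g2 kept the call with the effective length trend removed. The count of 7 became 4 without CR_0h 1, CR_6h 2, CR_14h 2 or CR_22h 2, 12 without CR_6h 3, 11 without CR_22h 3, and 16 without the 4 libraries that lay with another diet.

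In AL livers the 1 member that changed was Atp5s, where 0.276% of all genes did. It was at 2.64 ± 1.10 CPM at 0 h (n = 3), 2.09 ± 0.437 at 6 h (n = 2), 5.74 ± 0.797 at 14 h (n = 3) and 3.40 ± 0.678 at 22 h (SD, n = 3), so its high point was at 14 h under both diets (adjusted p = 0.0471 in AL, edgeR). The AL call was lost without any 1 of the AL libraries except AL_0h 2, without which the count was 2, and AL_22h 2, and with the effective length trend removed. In fasted livers no member was called over 6, 14 and 22 h by edgeR, DESeq2 or limma (2.86% of all genes by edgeR), and 4 nuclear members had an unadjusted p under 0.05. With either length trend removed Ndufaf5 was called there, and it was at 3.90 ± 0.552 CPM at 6 h, 2.15 ± 0.313 at 14 h and 1.89 ± 0.689 at 22 h (SD, n = 3 each).

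Further genes of the pathway were counted in lists beside the members. Of 44 tested genes for assembly and partner proteins, 12 fell and 1 rose in F_14h against AL_14h, with a median of −0.48, next to −0.04 over all genes, of which 12.7% were called lower and 11.8% higher. Sdhaf4, a complex II assembly factor, was at 5.63 ± 1.14 CPM in F_14h and 16.4 ± 6.08 CPM in AL_14h (SD, n = 3 each; −1.54 ± 0.40). Bcs1l, which inserts the iron-sulfur protein into complex III, was at 7.49 ± 1.13 and 13.3 ± 1.57 CPM in these groups (−0.83 ± 0.17), and was lower again in CR_missed (8.95 ± 0.551 CPM) than in CR_fed (15.5 ± 2.15 CPM). Sco2, a copper chaperone of complex IV, was at 49.4 ± 12.8 CPM in CR_missed and 22.4 ± 3.09 CPM in CR_fed (+1.14 ± 0.31). In F_22h against AL_22h 4 genes were lower, where 11.5% of all genes were called. None of the 4 held with the effective length trend removed, and 3 (Bcs1l, Sdhaf2 and Timmdc1) held with that of the listed length removed. There were 4 higher and 2 lower in CR_14h against F_14h (17.1% of all genes called), 1 higher and 3 lower in CR_22h against F_22h (9.44%), 1 higher and 1 lower in CR_6h against F_6h (6.8%), 1 lower in CR_22h against AL_22h (4.88%), and 1 higher and 2 lower in CR_missed against CR_fed (12.5%). With the effective length trend removed, 4 of the 13 calls at 14 h held, namely Acad9, Bcs1l, Sdhaf2 and Ttc19, as did Acad9, Bcs1l and Sco2 after the missed meal. With the listed length 5 of the 13 held, these 4 and Tmem126b, as did Bcs1l and Sco2 after the missed meal.

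Of 31 regulators and genes of mitochondrial DNA expression, 9 rose and 1 fell in F_14h, with a median of +0.12, where 11.8% of all genes were called higher and 12.7% lower. Ppargc1a, the coactivator of mitochondrial biogenesis, was at 22.5 ± 11.5 CPM in F_14h and 8.83 ± 0.0612 CPM in AL_14h (+1.35 ± 0.42), and at 17.8 ± 8.25 CPM in F_22h and 5.14 ± 1.86 CPM in AL_22h (+1.78 ± 0.42). Its paralog Ppargc1b was at 8.69 ± 1.78 CPM in F_14h and 3.95 ± 1.23 CPM in AL_14h (+1.14 ± 0.33). It was at 2.29 ± 0.103 CPM in CR_14h, lower than in F_14h by a difference of −1.92 ± 0.34. Lrpprc, which stabilises mitochondrial mRNA, was at 148 ± 13.3 CPM in F_14h and 77.5 ± 8.28 CPM in AL_14h (+0.93 ± 0.22), while its small partner Slirp was at 5.31 ± 1.04 and 13.1 ± 3.32 CPM (−1.30 ± 0.46). After the missed meal Tfb2m, a factor of mitochondrial transcription, was at 51.1 ± 5.83 CPM in CR_missed and 27.1 ± 2.66 CPM in CR_fed (+0.91 ± 0.15). In the other comparisons 2 genes of the list were higher in F_6h than in AL_6h (2.34% of all genes called), 4 higher in F_22h than in AL_22h (11.5%) and 1, Ppargc1a, higher in CR_22h than in AL_22h (+2.05 ± 0.41; 4.88%). Those lower were 3 in CR_6h against F_6h (Mterf4, Ppargc1b and Tfb2m; 6.8%) and 5 in CR_14h against F_14h (17.1%), with none called the other way. In CR_missed 2 were higher and 1 lower than in CR_fed (12.5%). With the effective length trend removed, 4 of the 10 calls at 14 h held (Fastkd1, Lrpprc, Ppargc1b and Tbrg4), and 2 of the 4 in F_22h (Ppargc1a and Ppargc1b). Ppargc1a also kept its call in CR_22h against AL_22h. With the listed length 7 of the 10 held (Gabpa, Lrpprc, Polg, Ppargc1a, Ppargc1b, Pprc1 and Tbrg4), as did all 4 in F_22h.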

How the data were processed

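The data were 38 libraries of liver mRNA, made with a polyA-selecting, non-directional kit and read in pairs of 150 bases, per the labels' protocols. The authors aligned reads with Bowtie, allowing up to 2 mismatches, to GRCm38 protein coding genes and made expected counts per gene with RSEM 1.2.3, per the labels' protocols and the submitters' processing notes. They also deposited a signal table of TPM rescaled with EBSeq against a potential batch effect, per the labels; no batch is named there.

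Expected counts were rounded and scaled by TMM, genes were filtered with filterByExpr, and 1 model over the 13 groups was fitted with edgeR 4.0.16 in R 4.3.3 by its quasi-likelihood test (Benjamini-Hochberg threshold 0.05, common dispersion 0.0785). Standard errors are the fold change over the square root of F. Alternatives used DESeq2 1.42.0, limma 3.58.1 on log2(rescaled TPM + 1) or with a pseudocount of 0.1, other scalings and filters, the libraries compared alone, the replicate block, the removal of each library's trend with transcript length (lowess, span 0.3) and the omission of libraries. Listed lengths were means over a gene's transcripts in GENCODE vM21, known for 99.8% of genes. Effective lengths were the ratio of expected count to rescaled TPM over values above 20 counts, scaled to the median of the listed lengths and known for 13158 tested genes. CPM used TMM totals. Summaries and figures were made with Python 3.11.15, pandas 2.3.3 and matplotlib 3.10.9, and the fit was tested on simulated data.

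The members and gene lists were chosen with earlier results of these data known. Named were all mitochondrial members, the isoform sets, in each complex the 4 members called in the most comparisons (all of complex II) and the one of highest mean CPM, and in each comparison the 3 called members of largest fold change each way with at least 5 CPM in a group; other members were named after their values were seen. In CR_missed and CR_fed, the deviations of samples of the same number were weakly correlated (r = 0.144, 0.2 and 0.15 for the 3 pairs), which does not show a pairing. The values given for this comparison come from the fit without pairing. A fit with the replicate block called 4 nuclear members, as many as without it. Single-library intervals and floors are not given, and depth limits genes such as Cox6b2, with 173 reads in all.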

Additional observations from a re-analysis of the deposited data

Results flagged for a closer look

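Of 53 values checked in the 4 libraries of CR_22h, 2 had a library far from the others, where chance flags about 1 in 20 groups. Sdhb, the iron-sulfur subunit of complex II, was at 202, 275, 200 and 207 CPM in CR_22h, and the gap of CR_22h 2 to the next library was 0.903 of the range, above Dixon's critical value for 4 libraries. mt-Atp8 was at 32.6, 30.1, 43.7 and 116 CPM in CR_22h, and the gap of CR_22h 4 was 0.842 of the range.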

How the results depend on the processing

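Of 65 called differences of named members, 65 kept direction and call with DESeq2, 63 with DESeq2 size factors and 62 when scaled without the mitochondrial genes. The number was 62 with the replicate block, 56 without the filter on low counts, 47 to 54 with limma and 38 with the compared libraries alone. Some of the 65 were not tested with limma at a minimum level or with the compared libraries alone. It was 25 with the trend of listed transcript length removed and 19 with that of effective length removed. The last of these, and the 3 omissions of libraries that stood apart, were chosen after seeing the data; the other settings were not. The cause of the changes was not tested.

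With DESeq2 size factors, or scaling without the mitochondrial genes, 0 members changed over time in AL. With the DESeq2 test the nuclear counts were 1 (F_6h against AL_6h), 2 (CR_22h against AL_22h), 1 (CR_6h against F_6h) and 14 (CR_22h against F_22h), the mitochondrial counts were 8 (F_14h against AL_14h), 2 (CR_14h against F_14h) and 3 (CR_22h against F_22h), and 2 members changed over time in AL, 12 in CR and 1 in its fasting difference. Without the filter on low counts, 0 mitochondrial members were called at 22 h in F against AL and 0 over time in AL. With limma at a pseudocount of 1 the mitochondrial count in F_14h against AL_14h was 3, and nuclear counts were 1 in CR_22h against AL_22h and 2 in CR_missed against CR_fed. A pseudocount of 0.1 gave 3, 1 and 2 for the same comparisons and 10 nuclear members in F_22h against AL_22h. With no minimum level, limma called 1 mitochondrial member in F_14h against AL_14h and 0 in F_22h against AL_22h, CR_14h against F_14h and CR_22h against F_22h.

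With the compared libraries alone, nuclear counts were 3 (F_6h against AL_6h), 15 (CR_14h against F_14h), 0 (CR_22h against F_22h) and 2 (CR_missed against CR_fed). Mitochondrial counts were 1 at 6 h, 1 at 14 h and 3 at 22 h for F against AL, 0 at 14 h and 0 at 22 h for CR against F, and 1 for CR_missed against CR_fed, with 0 members over time in AL and 2 in CR. With the listed length trend removed, nuclear counts were 17 (F_14h against AL_14h), 2 (CR_22h against AL_22h), 1 (CR_6h against F_6h) and 11 (CR_14h against F_14h), mitochondrial counts were 1 (F_14h against AL_14h) and 0 (CR_22h against F_22h), and 2 members changed over time in F. With the effective length trend removed, nuclear counts were 1 (F_6h against AL_6h), 11 (F_14h against AL_14h), 2 (CR_22h against AL_22h), 2 (CR_6h against F_6h), 7 (CR_14h against F_14h), 2 (CR_22h against F_22h) and 9 (CR_missed against CR_fed). The mitochondrial counts were then 1 (F_14h against AL_14h) and 0 (CR_22h against F_22h), and 0 members changed over time in AL and 1 in F.

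In F_14h against AL_14h the direction turned with the listed length for Cox6a1 (0.31), Cox6b1 (0.50), Cox8a (0.28), Ndufaf8 (0.24) and mt-Nd3 (0.046), and with the effective length for Cox6a1 (0.49), Cox6b1 (0.25), Cox8a (0.41), Ndufaf8 (0.13), Atp5g1 (0.12), Atp5g3 (0.013), Cox5a (0.072), Uqcr11 (0.065), mt-Co2 (0.049) and mt-Nd3 (0.087). In CR_14h against F_14h it turned for Cox8a (−0.021 and −0.093) and mt-Nd3 (−0.14 and −0.16). mt-Nd4 in F_14h against AL_14h was −1.24 to 0.052 without 1 library, and turned without AL_14h 1.

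The replicate block gave nuclear counts of 2 in F_6h against AL_6h and 1 in CR_22h against AL_22h, mitochondrial counts of 2 in CR_14h against F_14h and 0 in CR_22h against F_22h, 0 members over time in AL and 1 in F. Outside the missed-meal comparison, correlations between samples of the same number were −0.196 to 0.171. Those of CR_22h against F_22h were 0.171, 0.03 and 0.161, so the missed-meal values of 0.144, 0.2 and 0.15 do not stand apart.

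Without the libraries of a deviant clock, F_22h against AL_22h had 3 nuclear and 0 mitochondrial calls and 2 members changed over time in AL. Without the 4 libraries that lay with another diet, nuclear counts were 10 (F_22h against AL_22h), 2 (CR_14h against AL_14h), 7 (CR_22h against AL_22h), 12 (CR_14h against F_14h) and 15 (CR_22h against F_22h), 0 mitochondrial members were called in CR_14h against F_14h, and 0 members changed over time in AL and 16 in CR. Without all 6, nuclear counts were 1 (F_6h against AL_6h), 2 (CR_14h against AL_14h), 3 (CR_22h against AL_22h), 12 (CR_14h against F_14h) and 14 (CR_22h against F_22h), 0 mitochondrial members were called in F_22h against AL_22h and in CR_14h against F_14h, and 15 members changed over time in CR, 1 in F and 1 in its fasting difference.

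Leaving out 1 library at a time gave 8 to 55 nuclear members in F_14h against AL_14h, 1 to 13 in F_22h against AL_22h, 0 to 3 in CR_22h against AL_22h, 0 to 1 in CR_6h against F_6h, 10 to 30 in CR_14h against F_14h, 2 to 19 in CR_22h against F_22h and 0 to 2 in CR_missed against CR_fed. The 1 call in CR_6h against F_6h came without CR_6h 2. The mitochondrial members numbered 2 to 10 in F_14h against AL_14h, 0 to 0 in F_22h against AL_22h, and 0 to 1 in CR against F at 14 h and at 22 h. Over time the range was 0 to 2 in AL and 4 to 12 in CR. Where this left 1 library in a group (AL_6h, CR_0h), its spread was assumed to be like that of the other groups.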
